A study of Homo sapiens with 18 samples.

Results

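The oligoadenylate synthetase (OAS) family was followed in OVCAR3, a human cell line long established from high-grade serous ovarian carcinoma, after incubation with antibodies. The family holds 4 genes, OAS1, OAS2, OAS3 and OASL, of the 55765 gene symbols counted, and all 4 passed the filter on low counts in both series. They were found by symbol, and the family was chosen by its measured rise against untreated cells with BDNF IgA and with TSPAN7 IgA. Values of the members in those comparisons are therefore given as a description, without p-values. The question was what a tumour cell expresses when IgA, the antibody class that the polymeric immunoglobulin receptor carries through epithelial cells, binds and enters it.

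OAS1, OAS2 and OAS3 are enzymes that bind double-stranded RNA and then join ATP into short 2′-5′-linked oligoadenylates (2-5A). The 2-5A molecules are second messengers of antiviral defence. OASL has an OAS-like fold followed by ubiquitin-like domains, lacks the enzymatic activity, and is known to bind the RNA sensor RIG-I (DDX58). Interferons induce all 4 genes in most cell types, through the ISGF3 complex, which holds STAT2 and IRF9, or directly through interferon regulatory factors.

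RNA sequencing covered 18 libraries in 2 series of 9, with 3 replicates a group. Cells of the first series received non-specific human IgA or IgG (0.5 µg/ml) or nothing, and those of the second received IgA against BDNF (a secreted neurotrophin) or against TSPAN7 (a tetraspanin) (0.5 µg/ml) or nothing. The antigen-specific IgA came from immortalised B cells of ovarian tumours, and all groups were of 1 unmodified cell line, so the replicates describe that line. Incubation lasted 24 h by the labels and methods, though another description of the experiment gives a shorter time. Totals per library ran from 27920733 to 42371474 counts (first series) and from 39254350 to 47381836 counts (second series). One library stood apart: IgA replicate 3 had 19.1% of its counts in mitochondrial genes, against 5.75% to 8.32% in the other libraries of the first series. The 8 epithelial carcinoma markers, PAX8 and MUC16 among them, were detected in every library, while 7 leukocyte markers together stayed between 0.572 and 2.02 CPM (counts scaled by the library total), with the B cell marker MS4A1 at 0 in every library of the first series. Of 5 fibroblast markers, COL1A1 and COL1A2 carried nearly all of a summed 62.9 to 110 CPM. COL1A1 and COL1A2, which encode type I collagen, were higher with IgA than with IgG in the first series (log2 fold changes 0.64 and 0.66, adjusted p = 0.0215 and 0.0351), and PTPRC, a leukocyte marker at 6 to 24 counts, was higher with TSPAN7 IgA than in untreated cells (1.39, adjusted p = 0.0487). Of the 8 carcinoma markers, 2 were called higher (PAX8, KRT7) and 2 lower (WT1, KRT8) with IgA against IgG. In that comparison 12.6% of all genes were called higher and 11.6% lower. With TSPAN7 IgA against untreated cells 1 marker was higher (KRT7) and 2 lower (WT1, MUC16), against 4.46% and 4.08% of all genes. With BDNF IgA 3 were higher and 0 lower, against 4.49% and 3.18% of all genes. The part of these marker changes in the results was not tested. In bulk RNA, fewer expressing cells and less RNA per cell cannot be told apart.

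OAS1, OAS3 and OAS2 lie head to tail on the plus strand of chromosome 12, in that order, over 105.9 kb (GRCh37). OAS1 spans chr12:113343661-113371024, OAS3 chr12:113375856-113414265 and OAS2 chr12:113416200-113449528, with gaps of 4.83 and 1.94 kb. OASL lies 8.01 Mb away on the minus strand, at chr12:121455566-121477049. A long non-coding RNA annotated on the opposite strand overlaps OAS1, OAS3 and OAS2, and no source used here says whether counting respected strand. The symbol RP1-71H24.1, taken here for an antisense RNA of this locus, had 0 counts throughout the first series and at most 2 in a library of the second. The counts carry symbols without positions, so its place was not checked.

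The promoter table of RefSeq (GRCh38.p14) held 2 of the 4 members, OAS1 and OAS3. Their 250 bases upstream of the annotated start are shown because the 4 genes moved together in the second series and because interferon response elements are built from repeats of GAAA. Capitals mark GAAANNGAAA on either strand and, in a search added after the letters were seen, GAAANGAAA on either strand. The OAS1 window is chr12:112906712-112906961 and the OAS3 window chr12:112938224-112938473, both on the plus strand.
OAS1: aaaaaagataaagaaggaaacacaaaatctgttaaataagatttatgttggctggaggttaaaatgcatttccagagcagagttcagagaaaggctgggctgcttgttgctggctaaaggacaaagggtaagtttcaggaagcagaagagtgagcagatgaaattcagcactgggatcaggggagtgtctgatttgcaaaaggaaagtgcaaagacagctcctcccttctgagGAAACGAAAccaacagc
OAS3: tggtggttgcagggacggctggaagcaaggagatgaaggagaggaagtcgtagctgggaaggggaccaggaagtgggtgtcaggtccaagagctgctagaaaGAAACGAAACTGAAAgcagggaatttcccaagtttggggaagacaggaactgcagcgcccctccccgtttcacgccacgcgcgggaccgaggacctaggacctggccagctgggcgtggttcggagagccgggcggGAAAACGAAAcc

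The OAS3 window held 2 matches with 2 free bases between the repeats, one from -143 to -134 and one from -12 to -3, where -1 is the base before the start. The first of them overlaps a match with 1 free base that runs from -148 to -140. OAS1 had 1 match, with 1 free base, from -17 to -9. Of 35116 promoters in the table, 3.02% held the form with 2 free bases in the same window, 0.225% held it at least 2 times, and 2.69% held the form with 1 free base. Either form was present in 5.48%. Among 37 other interferon-stimulated genes listed for this work, 33 had a promoter entry and 23 of those (69.7%) held the form with 2 free bases. A match is a stretch of letters only, and binding was not measured.

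In untreated cells of the second series all 4 members were expressed. OAS1 stood at 35.7, 38.0 and 34.0 CPM after scaling by trimmed mean of M values (TMM), OAS3 at 91.2, 100 and 80.1 CPM, OAS2 at 22.2, 26.6 and 17.1 CPM and OASL at 4.01, 4.53 and 3.37 CPM. Levels of different genes were compared per kb of the canonical transcript, on CPM scaled by library size. On that scale OAS1 was highest at 21.9 ± 1.32 CPM per kb, followed by OAS3 at 13.6 ± 1.56, OAS2 at 4.73 ± 1.05 and OASL at 1.21 ± 0.183 (SD, n = 3). No neighbours in this order overlapped in any of the 3 libraries. Where the exons of all annotated transcripts set the length instead, an alternative chosen after seeing the data, the order began with OAS3 at 4.99 CPM per kb and OAS1 at 2.74. Among 15138 genes with a length, OAS1 stood on average at percentile 80.6 of level per kb in these cells, OAS3 at 70.2, OAS2 at 44.1 and OASL at 21.5. With BDNF IgA the percentiles were 94.0, 88.7, 79.3 and 33.9, and with TSPAN7 IgA 93.2, 88.9, 75.8 and 32.5. By the all-exon length OAS3 was again ahead in untreated cells, at percentile 57.0 against 42.8 for OAS1, 35.5 for OAS2 and 18.8 for OASL, and with BDNF IgA the values were 80.8, 69.8, 70.2 and 30.4.

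The 2 untreated groups did not have the same level of the family. OAS2 was at 1.59 ± 0.395 CPM (library-size scaling, SD, n = 3) in untreated cells of the first series and at 21.9 ± 4.84 in the second, 13.8-fold higher, which placed it 5th from the top of 17548 genes tested in both series. OASL went from 0.912 ± 0.156 to 3.95 ± 0.598 CPM (4.34-fold), OAS3 from 37.4 ± 5.61 to 90.0 ± 10.3 (2.41-fold) and OAS1 from 17.1 ± 2.83 to 35.7 ± 2.16 (2.09-fold). For each member the lowest library of the second untreated group lay above the highest of the first, as was so for 29.4% of all genes. Of the 37 other interferon-stimulated genes 29 lay wholly above and 5 wholly below, with a median log2 difference of 0.91 against 0.01 over all genes. The series and the state of its cells cannot be told apart, so this difference was not tested and treated groups were compared with the untreated cells of their own series.

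**Figure D1:**
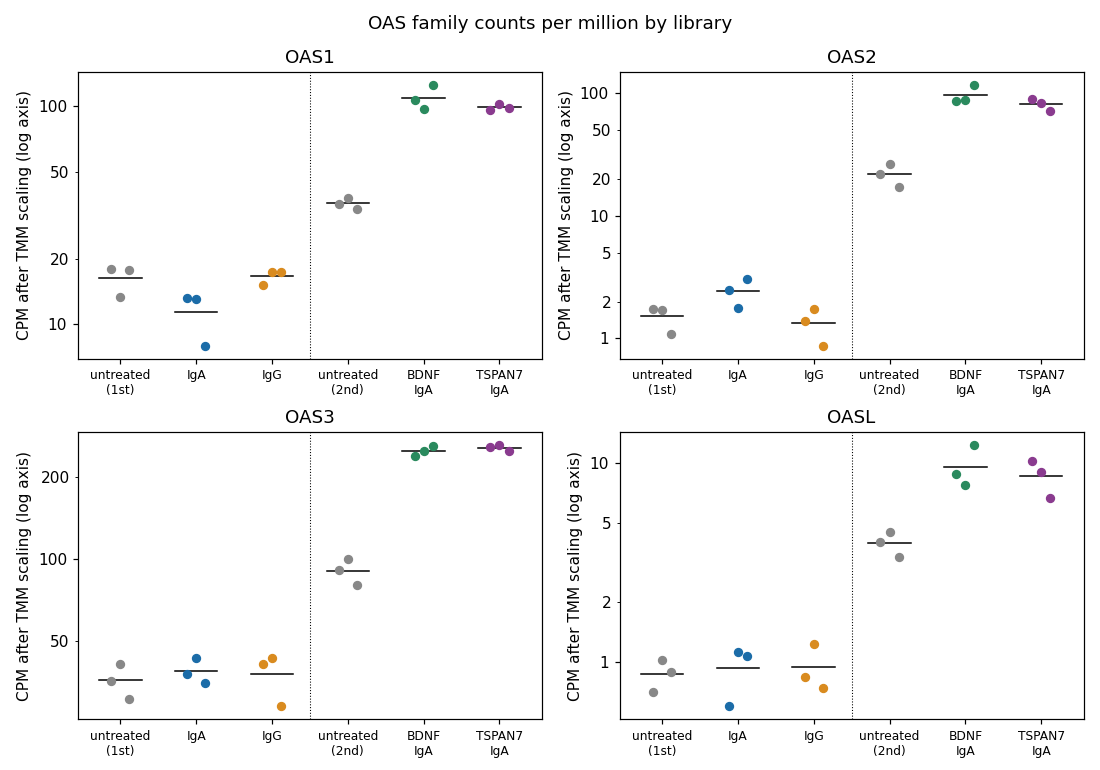
CPM after TMM scaling of the 4 members (vertical log axis) in each of the 18 libraries by group, with untreated, IgA and IgG cells of the first series left of the dotted line and untreated, BDNF IgA and TSPAN7 IgA cells of the second series right of it. Points are libraries and lines are group means, and the series were scaled separately. In the second series every library with BDNF or TSPAN7 IgA lies above every untreated library, for OAS1 from 96.4 to 125 against 34.0 to 38.0 CPM.

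With BDNF IgA all 4 members were higher than in untreated cells of the second series. OAS2 stood at 85.8, 88.3 and 117 CPM, OAS1 at 107, 97.2 and 125 CPM, OAS3 at 238, 248 and 259 CPM and OASL at 8.77, 7.73 and 12.3 CPM. Every library with BDNF IgA was above every untreated library for each member, and BDNF IgA replicate 3 was the highest for all 4. OAS2 had the largest log2 fold change of the family, 2.15 (SE 0.12), or 4.43-fold. OAS1 followed at 1.61 (SE 0.071), OAS3 at 1.46 (SE 0.060) and OASL at 1.28 (SE 0.17). Among 18732 genes tested these were ranks 8, 28, 43 and 64 from the top. The fit called 4 of 4 members higher, where it called 4.49% of all genes higher, 3.18% lower and found no overlap of the groups in 24.8%. Since the family was picked on this contrast, nothing is read from that count.

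TSPAN7 IgA gave values close to these. OAS2 stood at 90.2, 84.2 and 72.3 CPM, OAS1 at 96.4, 103 and 97.8 CPM, OAS3 at 257, 261 and 248 CPM and OASL at 10.2, 9.05 and 6.67 CPM. Again no library fell among the untreated ones. The log2 fold change against untreated cells was 1.91 (SE 0.12) for OAS2, 1.46 (SE 0.071) for OAS1 and 1.13 (SE 0.17) for OASL, and OAS3 was 2.83-fold higher (log2 SE 0.060). Ranks from the top were 13 for OAS2, 37 for OAS1, 113 for OASL and 32 for OAS3. The fit called 4 of 4 members higher, against 4.46% of all genes higher, 4.08% lower and 28.4% without overlap. The family was picked on this contrast as well, so nothing is read from this count either. Both comparisons use the same 3 untreated libraries.

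**Figure D2:**
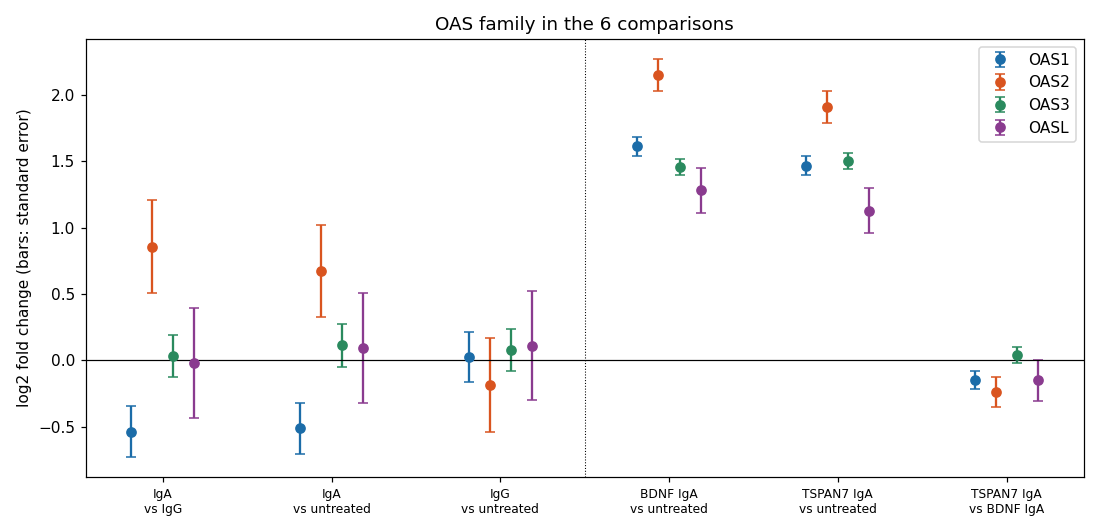
Log2 fold change (vertical axis, bars are standard errors) of the 4 members in the 3 comparisons of the first series, left of the dotted line, and of the second, right of it. Against untreated cells the members reach 1.13 to 2.15 with BDNF or TSPAN7 IgA.

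The antigen-specific antibodies were compared with each other directly. OAS1 was 0.903-fold with TSPAN7 IgA relative to BDNF IgA (95% interval 0.820 to 0.994, adjusted p = 0.192, edgeR quasi-likelihood test, Benjamini-Hochberg over 18732 genes). OAS2 was 0.847-fold (interval 0.721 to 0.995, adjusted p = 0.204). OAS3 was 1.03-fold (interval 0.947 to 1.12, adjusted p = 0.739) and OASL 0.901-fold (interval 0.721 to 1.13, adjusted p = 0.621). For all 4 members the groups overlapped, and none passed the test, where 7.92% of all genes did (4.50% lower with TSPAN7 IgA) and 23.6% had no overlap. The result for 2 members depended on the settings. Both passed without BDNF IgA replicate 2, OAS1 at a log2 fold change of -0.23 (adjusted p = 0.00597) and OAS2 at -0.30 (adjusted p = 0.0430). OAS2 also passed with all libraries kept and no filter (-0.24, adjusted p = 0.000388, edgeR).

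Levels were lower throughout the first series, and the 4 members did not move together. Per kb of canonical transcript OAS1 was highest in untreated cells, at 10.5 ± 1.74 CPM per kb, ahead of OAS3 at 5.67 ± 0.851, while OAS2 at 0.343 ± 0.0854 and OASL at 0.279 ± 0.0478 overlapped (SD, n = 3). With IgA OAS1 at 6.43 ± 2.20 and OAS3 at 5.34 ± 1.13 overlapped, while OAS2 at 0.466 ± 0.0790 lay above OASL at 0.259 ± 0.0867 in every library. With IgG OAS1 at 10.8 ± 0.793 was above OAS3 at 6.10 ± 1.32, and OAS2 at 0.306 ± 0.102 and OASL at 0.308 ± 0.0872 overlapped. By the all-exon length OAS3 was above OAS1 in each group, at 2.07 against 1.31 CPM per kb in untreated cells, 1.95 against 0.805 with IgA and 2.23 against 1.36 with IgG. OAS1 stood at 17.9, 13.3 and 17.8 CPM in untreated cells, at 13.2, 13.0 and 7.98 CPM with IgA and at 15.2, 17.4 and 17.4 CPM with IgG. All 3 libraries with IgA were below all untreated and all IgG libraries, though the highest of them and the lowest untreated one were nearly equal, and the lowest was IgA replicate 3, the library rich in mitochondrial counts. The log2 fold change was -0.54 (SE 0.19, adjusted p = 0.0580) against IgG and -0.51 (SE 0.19, adjusted p = 0.0686) against untreated cells, so neither passed the threshold of 0.05. Without IgA replicate 3 it was -0.34 against IgG and -0.32 against untreated cells (adjusted p = 0.109 and 0.138). By DESeq2 OAS1 did pass, at an adjusted p of 0.0326 against IgG and 0.0415 against untreated cells.

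OAS2 went the other way in value. Its CPM were 1.74, 1.72 and 1.10 in untreated cells, 2.48, 1.76 and 3.05 with IgA and 1.38, 1.73 and 0.872 with IgG, from 28 to 78 counts a library. After TMM scaling IgA libraries again did not overlap with the rest, on the high side, by a margin far smaller than the spread within a group. By library-size CPM the groups did overlap, with IgA replicate 2 at 1.74 against 1.85 in untreated replicate 1 and in IgG replicate 2. The log2 fold change was 0.86 (SE 0.35, adjusted p = 0.0931) against IgG and 0.67 (SE 0.35, adjusted p = 0.178) against untreated cells. Neither passed, although without IgA replicate 2 the first reached 1.04 with an adjusted p of 0.0497.

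OAS3 and OASL showed no such separation. OAS3 stood at 35.7, 41.2 and 30.6 CPM in untreated cells, at 37.9, 43.3 and 35.0 with IgA and at 41.3, 43.4 and 28.8 with IgG. OASL had 0.707, 1.03 and 0.891 CPM in untreated cells, 0.604, 1.13 and 1.08 with IgA and 0.847, 1.24 and 0.748 with IgG, on 19 to 48 counts a library. For both genes the groups overlapped, with IgA to IgG ratios of 1.02 for OAS3 (95% interval 0.806 to 1.30, adjusted p = 0.900) and 0.988 for OASL (interval 0.532 to 1.83, adjusted p = 0.981). Against untreated cells IgA gave 0.11 (SE 0.16) for OAS3 and 0.094 (SE 0.41) for OASL on the log2 scale. The low counts of OASL leave its interval wide.

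No member was called with IgA, against 24.2% of all genes called against IgG (12.6% higher, 11.6% lower) and 25.0% called against untreated cells. After TMM scaling the IgA group did not overlap with the other for 2 of 4 members, as held for 40.3% of all genes against IgG and 39.9% against untreated cells. IgG left the family close to untreated cells, at log2 fold changes of 0.026 for OAS1, -0.18 for OAS2, 0.080 for OAS3 and 0.11 for OASL, each with an adjusted p of 1.00 and overlapping groups. In that comparison 0% of all genes were called by edgeR and 0 genes by DESeq2, 89 and 139 genes had an unadjusted p under 0.05 by these tools, and 6.75% had no overlap.

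**Figure D3:**
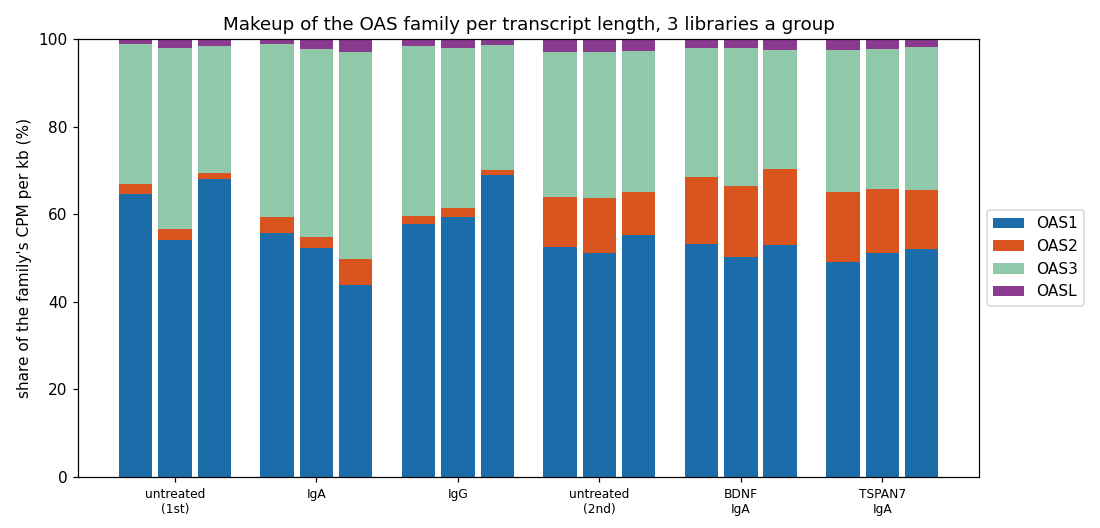
Share of each member in the summed CPM per kb of the family (vertical axis, %), as stacked bars for the 18 libraries by group. OAS2 makes up 1.22% to 5.90% of the family in first-series libraries and 9.81% to 17.5% in second-series ones.

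The makeup of the family per kb of canonical transcript was compared with its total. The sum was 8.93 to 19.3 CPM per kb in the first series, 37.3 to 45.6 in untreated cells of the second and 115 to 146 with BDNF or TSPAN7 IgA. The share of OAS2 was 2.05% ± 0.510 in untreated cells of the first series, 1.72% ± 0.444 with IgG and 4.02% ± 1.73 with IgA (SD, n = 3). In the second series it was 11.3% ± 1.42 in untreated cells, 16.2% ± 1.16 with BDNF IgA and 14.8% ± 1.30 with TSPAN7 IgA. IgA replicate 3 had both the lowest sum, 8.93 CPM per kb, and the highest share of OAS2 in the first series, 5.90%. Group means of OAS1 ran from 50.6% to 62.2% and those of OASL from 1.68% to 2.90%. These shares depend on the length used: with the exons of all transcripts OAS3 held the most, 42.8% to 63.4%, OAS1 25.0% to 35.9% and OASL 3.95% to 6.06%. The share of OAS2 was then 3.82% in untreated cells of the first series, 6.56% with IgA and 3.19% with IgG, and 18.7% in untreated cells of the second series, 26.6% with BDNF IgA and 24.0% with TSPAN7 IgA.

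Ratios of 2 genes within a library do not depend on scaling. For each count of OAS2 there were 10.3, 7.76 and 16.2 counts of OAS1 in untreated cells of the first series, 11.0, 10.05 and 19.9 with IgG and 5.33, 7.42 and 2.62 with IgA. The 3 libraries with IgA were below the other 6, and the most extreme was IgA replicate 3. For the second series the numbers were 1.61, 1.43 and 1.99 in untreated cells, 1.24, 1.10 and 1.07 with BDNF IgA and 1.07, 1.22 and 1.35 with TSPAN7 IgA, again with both treated groups below the untreated one. This ratio was looked at after the values were known and is given without a test.

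OASL, the member without enzymatic activity, was set against the mean log2 count of the 3 enzymes. The log2 ratio was -3.38 ± 0.029 in untreated cells of the second series, -3.87 ± 0.197 with BDNF IgA and -3.90 ± 0.254 with TSPAN7 IgA (SD, n = 3). All 6 treated libraries were below the untreated ones, and OASL had the smallest fold change of the family in both comparisons. Between TSPAN7 and BDNF IgA the ratio differed by -0.036 (exact permutation test, two-sided, p = 0.90). In the first series the log2 ratio was -3.46 ± 0.361 in untreated cells, -3.48 ± 0.587 with IgA and -3.32 ± 0.175 with IgG. The exact permutation p was 1.00 for IgA against IgG, 1.00 for IgA against untreated and 0.70 for IgG against untreated cells, and with 3 against 3 libraries it cannot go below 0.10.

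**Figure D4:**
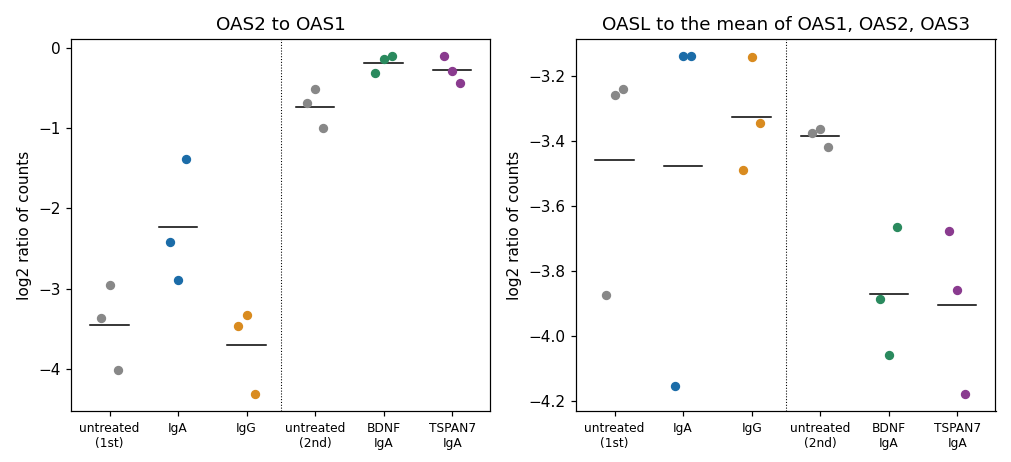
Log2 ratio of OAS2 to OAS1 counts and log2 ratio of OASL counts to the mean log2 count of OAS1, OAS2 and OAS3, each as points for the 18 libraries by group with group means as lines. The mean of the OASL ratio is -3.38 in untreated cells of the second series, -3.87 with BDNF IgA and -3.90 with TSPAN7 IgA.

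PDE12, ABCE1 and AKAP7, which act on 2-5A or its pathway, changed little or did not pass. PDE12, a phosphodiesterase that degrades 2-5A, stood at 48.0, 47.6 and 50.4 CPM in untreated cells of the second series and at 41.0, 44.7 and 38.2 with BDNF IgA, a log2 fold change of -0.24 (SE 0.060, adjusted p = 0.0158). With TSPAN7 IgA it was -0.084 (SE 0.059, adjusted p = 0.449). ABCE1, an ATP-binding protein of ribosome recycling that also acts in this pathway, had -0.13 (SE 0.053, adjusted p = 0.131) with BDNF IgA and -0.020 (SE 0.053, adjusted p = 0.875) with TSPAN7 IgA. AKAP7, which has a 2-5A degrading domain in some isoforms, had -0.19 (SE 0.11, adjusted p = 0.330) and -0.14 (SE 0.11, adjusted p = 0.481). Of these 3 genes PDE12 passed in that 1 comparison, and ABCE1 and AKAP7 passed in none of the 6.

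Interferon transcripts were almost absent. Of 21 interferon genes only IFNE, a type I interferon of epithelia, passed the filter, on 0 to 82 counts a library (first series) and 76 to 134 (second series). It was at 2.78 CPM with BDNF IgA, 2.46 with TSPAN7 IgA and 2.88 in untreated cells, and no comparison passed (adjusted p = 0.913 and 0.517 against untreated cells). IFNB1 reached 2 counts in a first-series library and 4 in a second-series one, and IFNL1 reached 7 and 6. IFNK (at most 2 counts), IFNA4 (2), IFNA6 (2), IFNA8 (1), IFNL2 (1) and IFNL3 (3) had counts in 1 or a few libraries, and the remaining genes were at 0. RNA was taken at 1 time, so an earlier pulse would not be seen.

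Of 9 interferon pathway receptors and kinases, 1 was called higher and 0 lower with BDNF IgA, against 4.49% and 3.18% of all genes. With TSPAN7 IgA 1 was higher and 1 lower, against 4.46% and 4.08% of all genes. The gene called higher in both was IFNGR1, the ligand-binding chain of the interferon-γ receptor, named after its values were seen, at log2 fold changes of 0.36 (adjusted p = 0.000542) and 0.40 (adjusted p = 0.000103). IFNAR1, a chain of the type I receptor, fell with TSPAN7 IgA (log2 fold change -0.26, SE 0.047, adjusted p = 0.00115), and had -0.10 (adjusted p = 0.211) with BDNF IgA. The difference between the antibodies was -0.16 (adjusted p = 0.0417). JAK1 and TYK2, the kinases of that receptor, passed in neither comparison with untreated cells. In the first series IgA against IgG gave 3 higher and 1 lower of 9: JAK1 rose by 0.35 (adjusted p = 0.0240), IFNGR2, the other chain of the interferon-γ receptor, by 0.82 (adjusted p = 0.000695) and IFNGR1 by 0.95 (adjusted p = 8.7e-05), while IFNAR1 fell by 0.36 (adjusted p = 0.0415). Over all genes that comparison called 12.6% higher and 11.6% lower. Under library-size scaling the split of the 9 was 2 higher and 3 lower.

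Sensors of RNA and DNA were described in the same way. Of the 11 tested 8 passed as higher and 0 as lower for BDNF IgA, against 4.49% and 3.18% of all genes. For TSPAN7 IgA it was 6 and 0, against 4.46% and 4.08% of all genes. The median log2 fold changes were 0.41 and 0.25, against 0.0022 and -0.00072 over all genes. EIF2AK2, the double-stranded RNA kinase PKR, had 0.65 (SE 0.043) and 0.68 (SE 0.043), and ADAR, which edits double-stranded RNA, 0.43 (SE 0.040) and 0.40 (SE 0.040). MAVS, the adaptor downstream of RIG-I, had -0.077 (adjusted p = 0.429) and -0.0081 (adjusted p = 0.953). TRIM25, a ubiquitin ligase for RIG-I, had 0.22 (SE 0.044) and 0.25 (SE 0.044) and was called higher with both. IgA against IgG gave 1 sensor higher and 2 lower, TRIM25 among the latter (-0.41, adjusted p = 0.0478), while EIF2AK2 had 0.14 (adjusted p = 0.244). Of all genes 12.6% were called higher and 11.6% lower in that comparison. Under library-size scaling 0 sensors were higher and 5 lower.

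Genes of the ISGF3 and IRF factors rose in part, and their role in OAS transcription here was not tested. Of 8 ISGF3 and IRF genes 4 were higher with BDNF IgA (median 0.34) and 5 with TSPAN7 IgA (median 0.22), none lower. Over all genes 4.49% and 4.46% were higher and 3.18% and 4.08% lower, at medians of 0.0022 and -0.00072. STAT2 had 0.53 (SE 0.070) and 0.27 (SE 0.071), and the antibodies differed by -0.26 (adjusted p = 0.0249). IRF1, a factor that responds to interferon-γ, rose in the first series with IgA against IgG by 1.19 (SE 0.24, adjusted p = 0.00355). There 3 of 8 genes were higher, none lower (3 and 1 under library-size scaling), against 12.6% and 11.6% of all genes. STAT2 had -0.33 (adjusted p = 0.123). All these counts are over lists fixed with earlier results of these data known.

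Feedback inhibitors were mixed. With BDNF IgA 3 of 8 were higher and 1 lower, against 4.49% and 3.18% of all genes. With TSPAN7 IgA 2 were higher and 1 lower, against 4.46% and 4.08% of all genes. ISG15, a ubiquitin-like protein that also stabilises the inhibitor USP18, had 2.38 (SE 0.061) and 2.36 (SE 0.061), more than any OAS gene. SOCS3, a suppressor of cytokine signalling, fell by 0.22 (adjusted p = 0.0449) with BDNF IgA and by 0.54 (adjusted p = 1.26e-05) with TSPAN7 IgA, and by 1.27 (adjusted p = 0.00286) with IgA against IgG. In that comparison 0 of 8 inhibitors were higher and 1 was lower, against 12.6% and 11.6% of all genes. With BDNF IgA no inhibitor was called lower under library-size scaling.

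Other interferon-stimulated genes moved with the family in the second series. All 37 tested were called higher with BDNF IgA, at a median log2 fold change of 0.90, where 4.49% of all genes were. With TSPAN7 IgA 35 were higher, at a median of 0.89, against 4.46% of all genes. None was lower with either antibody, where 3.18% and 4.08% of all genes were. IFITM3, which blocks entry of viruses, had 0.71 (SE 0.046) with BDNF IgA and 0.48 (SE 0.046) with TSPAN7 IgA, and PARP14 0.62 (SE 0.049) and 0.51 (SE 0.049). Between the antibodies 0 were higher and 8 lower with TSPAN7 IgA (median -0.11), where 3.42% and 4.50% of all genes were. Among the 8 lower were IFITM3 at -0.23 (adjusted p = 0.00351) and LGALS3BP, a secreted glycoprotein, at -0.27 (adjusted p = 0.00768). IgA gave 4 higher and 4 lower against IgG (median -0.077), and 4 and 5 against untreated cells. Over all genes 12.6% were called higher and 11.6% lower against IgG, and 12.9% and 12.1% against untreated cells. DTX3L, the partner of PARP9, was lower in both, by 0.44 (adjusted p = 0.00737) and 0.45 (adjusted p = 0.00630). Under library-size scaling the split against IgG was 1 higher and 11 lower.

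Over the 9 libraries of the second series log2 CPM of the members correlated with each other at r = 0.93 to 0.99. Within the first, OAS1 and OAS2 had r = -0.76 and the other pairs ran from -0.28 to 0.46. The libraries of a series fall into 3 groups, which these values include, so they are descriptions. In the second series the genes most like the family, by Pearson r with the mean standardised log2 CPM of its members, were DDX58 (0.998), IFI35 (0.995), IFI44 (0.995), HELZ2 (0.994) and MX1 (0.994), and 86 genes exceeded 0.95. In the first they included ROBO2 (0.934), RP11-450D21.1 (0.927), POLH (0.863) and EID1 (0.859), and 0 exceeded 0.95. Listed interferon-stimulated genes made up 33 of the 100 genes most like the family in the second series. In the first series they made up 0 of 100, but there the members did not move together, so their mean describes no shared pattern. The family was chosen by its rise in the second series, so nothing is read from these counts or from the correlations there. Ranking by Spearman's rho kept 1 of the 5 genes in each series.

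The neighbouring genes named here passed in no comparison. Within 100 kb of the cluster or of OASL the genes tested included DTX1, RASAL1, RP11-216P16.2 and SNORA70, the last a symbol shared by several loci. RASAL1 had -0.10 (adjusted p = 0.621) with BDNF IgA and -0.12 (adjusted p = 0.560) with TSPAN7 IgA. With IgA against IgG RASAL1 had -0.46 (adjusted p = 0.0544).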

How the data were processed

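RNA of OVCAR3 cells (18 libraries, 6 groups of 3, by the sample titles) was sequenced in 75-base read pairs by the study. Per the methods, the authors trimmed reads with cutadapt, aligned them with STAR to GRCh37 and counted them with featureCounts, while the submitters' processing notes list cutadapt 1.8.1 and HTSeq 0.6.1. The deposited values are raw counts per gene, and the authors tested them with DESeq2. A strand setting is not given in the sources used here. The second table repeated 2055 rows exactly, holding 1.99% to 2.46% of a library's counts; these were dropped, which left 55765 symbols in each.

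Each series was fitted with its 9 libraries in edgeR 4.0.16 (under R 4.3.3, with low counts removed by filterByExpr, TMM scaling and the two-sided quasi-likelihood F test), leaving 18012 and 18732 genes. P-values were adjusted over all genes by Benjamini-Hochberg and called under 0.05. Intervals and standard errors of fold changes are from this fit. The members and lists were chosen with earlier results of these data known. Named were the members, the 2-5A genes, at most the 4 most abundant genes of each other list, interferons with any count, the 5 most correlated genes a series and tested neighbours; a few genes that this rule names are not reported here. Lists were described by counts and medians, without a set test. Canonical transcript lengths came from GENCODE lifted to GRCh37 (33529 symbols matched directly, 1892 by an older symbol). No pair of replicates agreed within sampling noise (chi-square per degree of freedom 3.91 to 232). Nothing says that replicates came from separate cultures, so p-values measure only the spread between these libraries. Reads carry no molecular identifiers, so depth gives counting precision only. The scripts were tested on simulated data. Alternatives were DESeq2 1.42.0, other scalings and filters, duplicate rows kept, no mitochondrial or rRNA genes, a fit of the 6 libraries compared, a replicate block and leaving out each library.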

Additional observations from a re-analysis of the deposited data

Results flagged for a closer look

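OAS1 had log2 fold changes of opposite sign against untreated cells in the 2 series. It was -0.51 with non-specific IgA, which did not pass (edgeR, adjusted p = 0.0686; -0.32 with an adjusted p of 0.138 without IgA replicate 3), and 1.61 with BDNF IgA and 1.46 with TSPAN7 IgA, every library lying above the untreated ones. With non-specific IgA every library lay below every untreated one, the nearest pair at 13.2 and 13.3 CPM, in a comparison where 39.9% of all genes had no overlap. The difference between these responses was not tested, the antibodies and series differ together, and the untreated level of OAS1 itself was 2.09-fold higher in the second series.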

How the results depend on the processing

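Against untreated cells all 4 members were called higher with BDNF IgA and with TSPAN7 IgA in each alternative run, from which nothing is read, since the family was chosen on these comparisons. IgG against untreated cells gave 0 members in each. For IgA against IgG the number of members called went from 0 to 1 under library-size scaling, with no filter, with a stricter filter and by DESeq2, and to between 0 and 2 without one library. Against untreated cells it went to 1 under library-size scaling, with no filter and by DESeq2, and to between 0 and 1 without one library; for TSPAN7 against BDNF IgA it went to 1 with no filter and to between 0 and 2 without one library. Among the fits that left out a library, the highest count in both IgA comparisons came without IgA replicate 2. The log2 fold change of OAS1 ran from -0.75 to -0.34 against IgG (adjusted p from 0.0140 to 0.154, edgeR or DESeq2) and from -0.70 to -0.32 against untreated cells (0.0210 to 0.201).

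Library-size scaling moved the median of all genes to -0.25 (IgA against IgG) and -0.22 (IgA against untreated), and the higher share of calls from 52.0% to 19.4% and from 51.4% to 23.3%. It reversed OAS3 to -0.19 and -0.086 and OASL against untreated cells to -0.11, which relative to those medians are 0.056, 0.13 and 0.11. Without one library, OAS3 ran from -0.13 to 0.14 and OASL from -0.20 to 0.23 for IgA against IgG, and OASL from -0.084 to 0.33 for IgA against untreated cells. For IgG against untreated cells OAS1 ran from -0.10 to 0.097, OAS2 from -0.42 to 0.038, OAS3 from -0.030 to 0.24 and OASL from -0.13 to 0.25, and for TSPAN7 against BDNF IgA OASL ran from -0.29 to 0.071. With summed counts the OASL ratio differed by 0.052 (IgA against IgG) and 0.098 (IgA against untreated). Without one library it differed by -0.32 to 0.19, -0.23 to 0.32, -0.076 to 0.24 (IgG against untreated) and -0.15 to 0.10 (TSPAN7 against BDNF IgA). The cause of these changes was not tested.

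Calls over all genes ran, without one library, from 2566 to 5286 for IgA against IgG (4360 with all), from 2601 to 5229 for IgA against untreated (4503), from 734 to 2798 for BDNF IgA (1437), from 757 to 2304 for TSPAN7 IgA (1600) and from 482 to 3276 for TSPAN7 against BDNF IgA (1484). Over all genes same-numbered replicates mostly did not deviate together (18 correlations from -0.069 to 0.25, 1 over 0.1), so the numbers were not taken as pairs. The highest correlation was for replicate 3 of untreated and IgG cells in the first series. OAS3 itself ran in the same replicate order in every first-series group. For IgA against IgG a replicate block took the SE of OAS3 from 0.16 to 0.11, at a log2 fold change of 0.047 (adjusted p = 0.783, edgeR). With the replicate block 4 members were called with BDNF IgA, 4 with TSPAN7 IgA and 0 in the other comparisons. Among receptors and kinases the block gave 0 lower for IgA against IgG (1 without it, IFNAR1), 2 higher with BDNF IgA (1 without it) and 2 lower for TSPAN7 against BDNF IgA (1 without it). First-series OAS2 and OASL rest on under 100 counts a library, which limits what can be seen there.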
